A study of Mus musculus with 8 samples.

Results

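Accessible chromatin was examined around 9 Sox genes of neural development, Sox1, Sox2, Sox4, Sox5, Sox6, Sox8, Sox9, Sox11 and Sox12, in granule neuron progenitors (GNPs) with and without the chromatin remodeler Chd7. The genes were chosen as neural members of the family, and Sox4 and Sox11 are known Chd7 targets in other neural progenitors. A locus was the mouse mm10 gene body plus 50 kb on each side, and every peak overlapping it was a member. The 9 loci held 211 of 152984 peaks in the wild-type (WT) list, 142 of 106974 in the heterozygous (het) list and 241 of 174407 in the homozygous mutant list.

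GNPs are the dividing precursors of cerebellar granule neurons. They were isolated from mouse cerebella at postnatal day 7, of a strain written C56Bl6/J in the labels, and profiled with ATAC-seq, an assay that marks open DNA by letting the transposase Tn5 insert adapters there. The WT group (3 libraries) carried floxed Chd7 alleles without Cre, the het group (2 libraries) carried Atoh1-Cre with a floxed and an intact allele, and the mutant group (3 libraries) carried Atoh1-Cre with both alleles floxed. Atoh1-Cre acts in the granule lineage, and the study reports Chd7 protein left in the posterior lobe of mutants, for which it holds lower efficiency of the Cre line a probable reason, so mutant preparations could include cells that kept Chd7. Libraries of a group were pooled before peaks were called, and the WT and mutant replicates are described as technical. No value therefore has a replicate error, no difference between genotypes was tested, and all intervals cover counting error at most.

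SOX proteins bind DNA through an HMG box and are grouped by sequence. Sox1 and Sox2 (group B1) maintain neural progenitors. Sox4, Sox11 and Sox12 (group C) act as neurons differentiate. Sox5 and Sox6 (group D) carry no activation domain of their own and modulate other SOX proteins, and Sox8 and Sox9 (group E) are best known from glia. In the developing cerebellum Sox2 and Sox9 mark Bergmann glia.

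Sequences are given first for the distal regions on which the account turns. Each is the 151 bases around the summit of a peak, plus strand, read from GRCm38.p6, whose coordinates equal mm10. Capitals mark any of 6 short motifs on either strand: ACAATG and ACAAAG, bound by HMG box factors, the E-boxes CAGCTG and CAGATG, the NFI sequence TTGGCA, and the GC box GGGCGG. The first set shows the strongest regions over 1 kb from any start site upstream of the 3 group C genes and in Sox5, which were tall in both genotypes.
Sox4, 5.95 kb upstream, chr13:28959589-28959739: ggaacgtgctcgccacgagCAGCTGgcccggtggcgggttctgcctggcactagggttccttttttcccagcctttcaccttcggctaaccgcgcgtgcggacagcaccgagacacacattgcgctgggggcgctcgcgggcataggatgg
Sox11, 14.6 kb upstream, chr12:27357054-27357204: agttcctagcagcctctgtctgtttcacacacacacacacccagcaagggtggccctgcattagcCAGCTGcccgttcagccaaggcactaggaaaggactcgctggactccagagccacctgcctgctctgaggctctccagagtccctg
Sox12, 8.16 kb upstream, chr2:152406148-152406298: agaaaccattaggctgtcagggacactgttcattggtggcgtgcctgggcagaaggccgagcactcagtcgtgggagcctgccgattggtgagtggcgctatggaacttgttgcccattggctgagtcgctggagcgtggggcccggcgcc
Sox5, intron, chr6:144446109-144446259: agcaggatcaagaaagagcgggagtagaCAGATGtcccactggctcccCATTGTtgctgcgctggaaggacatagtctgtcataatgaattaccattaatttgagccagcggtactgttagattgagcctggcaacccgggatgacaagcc

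The second set shows the regions with the lowest and highest ratios among pairs whose pileups averaged 20 or more, the lower ones first, and the strongest peak called in mutant only. Larger ratios among weaker pairs are given with their genes.
Sox9, 42.1 kb downstream of its start site, lower in mutant, chr11:112824289-112824439: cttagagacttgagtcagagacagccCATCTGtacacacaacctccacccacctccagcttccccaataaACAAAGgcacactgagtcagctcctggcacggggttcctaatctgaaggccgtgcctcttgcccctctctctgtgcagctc
Sox5, intron, lower in mutant, chr6:144452281-144452431: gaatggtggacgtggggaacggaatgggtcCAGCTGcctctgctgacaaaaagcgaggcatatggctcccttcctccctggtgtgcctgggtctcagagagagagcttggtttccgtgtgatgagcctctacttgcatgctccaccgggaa
Sox5, intron, higher in mutant, chr6:144611514-144611664: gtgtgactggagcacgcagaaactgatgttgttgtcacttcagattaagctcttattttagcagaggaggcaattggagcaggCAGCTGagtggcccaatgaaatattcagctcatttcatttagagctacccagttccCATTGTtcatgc
Sox6, intron, higher in mutant, chr7:115966284-115966434: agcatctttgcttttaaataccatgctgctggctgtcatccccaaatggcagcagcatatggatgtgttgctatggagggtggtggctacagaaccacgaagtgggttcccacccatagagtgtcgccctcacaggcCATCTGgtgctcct
Sox5, intron, called in mutant only, chr6:144691458-144691608: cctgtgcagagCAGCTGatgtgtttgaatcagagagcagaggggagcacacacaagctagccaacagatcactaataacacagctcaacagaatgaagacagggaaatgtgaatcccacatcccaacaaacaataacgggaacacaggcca

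Height is the pileup of extended tags at the summit. It was scaled between WT and mutant by the tags of each list (50394313 in WT and 51030229 in mutant). The het list (30923002 tags) was called from another aligner with other extension settings, so het peaks are used by presence and by rank, the percentile of a peak in its own list by −log10 q, where 100 is strongest. WT and mutant also differed in tag size, 107 bp against 76 bp.

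Every one of the 9 genes had a peak within 1 kb of a start site of its own in all 3 lists, as did 66.1% of 21951 coding genes. Sox5 and Sox6 have 12 and 13 annotated start sites, and of coding genes with 10 or more such sites 96.8% had one. In WT the strongest of these ranked from 48.6 for Sox8 to 97.8 for Sox5, with a median of 84.7 over the 9 genes, against 85.9 in het and 86.5 in mutant. Promoters of GNP markers had a peak for 8 of 9 genes in WT and het and for 9 of 9 in mutant, Zic2 being absent from WT and het, with a median WT rank of 86.3. Markers of other cells were accessible as well: 7 of 7 of Bergmann glia and astrocytes in each list, with WT ranks from 44.5 to 90.3, 5 of 6 of the oligodendrocyte lineage in WT and mutant and 4 of 6 in het, with Olig1 at 80.6 and Olig2 at 74.5 in WT, and 3 of 4 of Purkinje cells in each list. Those 3, Calb1, Foxp2 and Rora, ranked from 89.1 to 93.5 in WT, above the median of the GNP markers. Interneuron progenitors had 3 of 3 in WT and mutant and 2 of 3 in het, endothelium 3 of 3 in each list, and microglia 1 of 3 in WT and 0 of 3 in het and mutant. Sox10, Pcp2, Aif1 and Cx3cr1 had no promoter peak in any list. Accessibility is not expression, and the part of other cells in the Sox loci was not tested. In pooled cells, a region open in fewer cells and a region less open in each cell cannot be told apart.

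**Figure D1:**
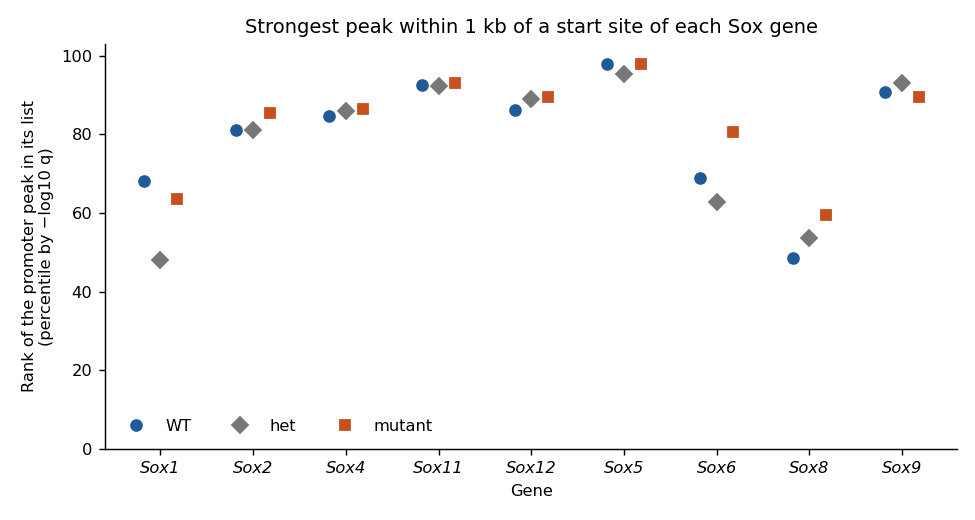
Rank of the strongest peak within 1 kb of a start site for each Sox gene (y axis, percentile in its own list, 100 strongest) in the WT, het and mutant lists, ordered by SOX group. Sox11, Sox5 and Sox9 sat near the top in all 3 lists, and Sox8 and Sox1 were lowest, Sox8 in WT and mutant and Sox1 in het.

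The group C genes, which include both named Chd7 targets, kept their promoters and main distal regions in the mutant. Strong peaks were kept almost everywhere, so this does not set the group C genes apart. In the whole WT list 15299 of 15301 peaks that ranked 90 or more had a mutant partner. Of all 34886 WT peaks without a mutant partner 33223 ranked under 50, below all of these promoters and distal regions. At the Sox4 promoter the pileup was 70 in WT and 73 in mutant (log2 ratio 0.04, 95% counting interval −0.45 to 0.54), with ranks of 84.7, 85.9 and 86.5 in WT, het and mutant. The Sox11 promoter had 75 in WT and 77 in mutant (0.02, −0.46 to 0.50), with ranks of 92.7, 92.4 and 93.2 in WT, het and mutant. That of Sox12 had 70 in WT and 77 in mutant (0.12, −0.37 to 0.61). All 3 intervals included 0.

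Upstream of Sox4 lay the strongest region of its locus, at chr13:28957863-28959933 in WT, with a pileup of 76 in WT and 73 in mutant (log2 ratio −0.08, −0.56 to 0.41). WT and het each had it as 1 broad peak, of 2071 and 2157 bp, whereas the mutant list split the same stretch into 3 peaks. The tallest part ranked 93.6, 90.5 and 92.5 in WT, het and mutant. The other shared Sox4 peaks were lower in mutant in 2 cases (an exonic peak with 40 in WT and 31 in mutant, and 1 at 21.1 kb upstream with 12 and 9) and higher in 1 (10 in WT, 15 in mutant, at 20.1 kb downstream of the start site). Their intervals included 0 as well.

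The distal region of Sox11, 14.6 kb upstream, had pileups of 47 in WT and 50 in mutant (0.07, −0.53 to 0.68), and ranks of 90.8, 87.7 and 93.1 in WT, het and mutant. All 5 shared pairs of the Sox11 locus had the higher scaled pileup in mutant, as did 66108 of 116084 pairs of the lists. Relative to the median of all pairs, however, the promoter was at −0.05 and the distal region at 0.00. Fold enrichment at the promoter was 6.81 in WT and 6.78 in mutant. The remaining 3 were weak, with 9 against 14, 13 against 18 and 10 against 13. The median log2 ratio of the 5 was 0.36, and among 15885 coding loci with at least 5 pairs 98.5% had a lower median. Every interval included 0, and the position of Sox11 in that order rests on peaks with few tags. The median was 0.05 for pairs whose pileups averaged 20 or more. It was also 0.05 when 20 kb rather than 50 kb were taken on each side. The Sox4 median was −0.08 over 5 pairs, with a lower median at 9.59% of those loci.

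Sox12, in a gene-dense stretch with 4 other coding genes, had the tallest distal region of group C for its background: 62 in WT and 67 in mutant at 8.16 kb upstream (0.09, −0.43 to 0.62), with fold enrichment of 13.1 and 15.0. It ranked 96.9, 95.5 and 98.2 in WT, het and mutant. All 13 shared pairs of the locus lay within 1.5-fold, from a log2 ratio of −0.48 to 0.16. Over all pairs of the lists 3.67% were at least 1.5-fold lower in mutant and 7.43% at least 1.5-fold higher.

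In group B1, the Sox2 promoter peak, 0.499 kb upstream of the start site, had 43 in WT and 47 in mutant (0.11, −0.52 to 0.74), and the peak over the gene itself had 36 and 29 (−0.33, −1.09 to 0.42). The strongest distal region of the locus, 30.1 kb upstream in an intron of the overlapping Sox2ot transcript, had 39 in WT and 34 in mutant (−0.22, −0.92 to 0.49) and ranks of 90.6, 84.5 and 88.3 in WT, het and mutant. Sox1 was weaker throughout. Its promoter had 28 in WT and 26 in mutant (−0.13, −0.95 to 0.70), and ranked 68.3 in WT, 47.9 in het and 63.5 in mutant. A region 35.1 kb downstream was stronger than the promoter, with 34 in WT and 37 in mutant (0.10, −0.61 to 0.82). Of its 8 pairs 1 was at least 1.5-fold lower in mutant, a weak intronic one 6.36 kb downstream with 18 in WT and 12 in mutant (−0.60, −1.79 to 0.53).

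**Figure D2:**
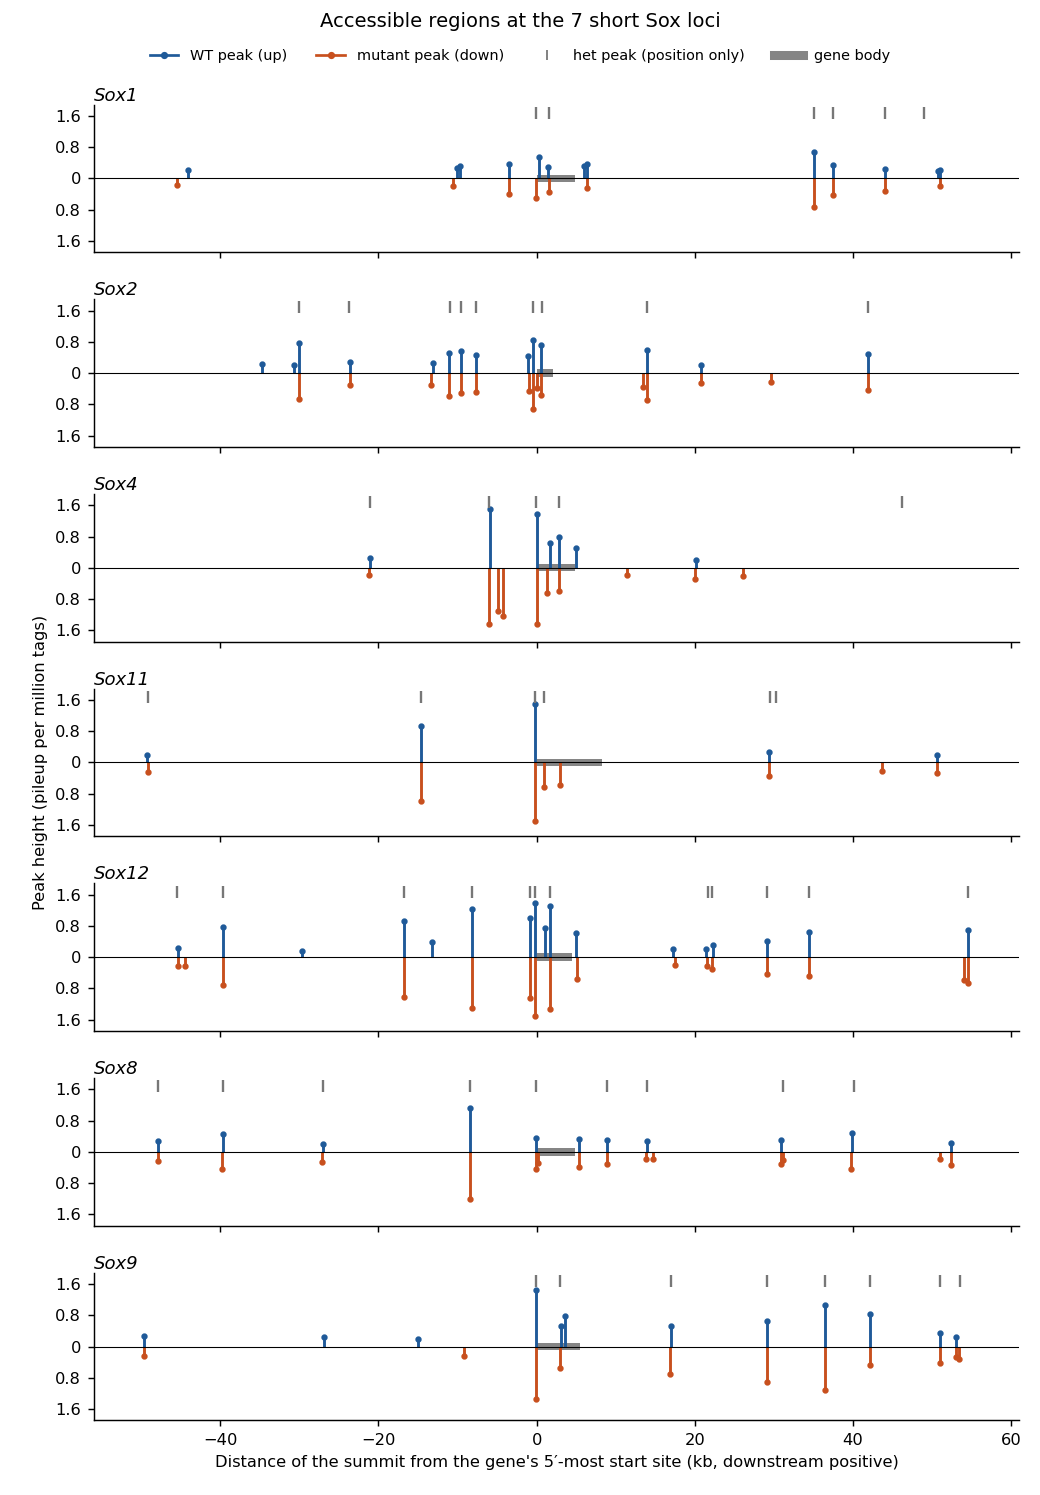
Peaks at the 7 short Sox loci, with the distance of the summit from the 5′-most start site on the x axis (kb) and height scaled to tag number on the y axis, WT upward and mutant downward, het as ticks at the top. The tallest peaks face each other in WT and mutant at Sox4, Sox11, Sox12, Sox8 and Sox9, while peaks on 1 side only are short, apart from the parts into which the mutant list splits the Sox4 upstream region and peaks inside Sox4, Sox9, Sox11 and Sox12.

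Among group E genes, Sox9 had the larger spread between neighbouring regions. Its promoter had 73 in WT and 69 in mutant (−0.10, −0.60 to 0.40). The 4 tallest regions beyond the 3′ end of the gene lay between it and the end of the locus. The first, at 16.9 kb, had 26 in WT and 36 in mutant (0.45, −0.32 to 1.24). The next, at 29.1 kb, had 33 and 46 (0.46, −0.22 to 1.15), and that at 36.4 kb had 53 and 57 (0.09, −0.48 to 0.65). The last, at 42.1 kb and 0.790 kb from the start of the long non-coding gene 4933434M16Rik, was lower in mutant, with 42 against 24 (−0.83, −1.61 to −0.07). Its rank was 89.6 in WT, 75.8 in het and 71.2 in the mutant list. Fold enrichment gave the same direction, 10.5 in WT against 6.79 in mutant. This region was named as the lowest ratio of its locus, so its interval is a description, and the ranks come from lists of different length.

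Sox8 had the weakest promoter of the 9 by rank in WT and mutant, though in het it ranked 53.5 and that of Sox1 lower. Its pileup was 18 in WT and 22 in mutant (0.27, −0.69 to 1.26), and the same peak lay 0.040 kb from the start of 2810468N07Rik. The tallest peak of the locus belonged to the neighbouring gene Lmf1, with 56 in WT and 61 in mutant (0.11, −0.44 to 0.66). All 11 WT peaks of the Sox8 locus had a mutant partner. Over all WT peaks 22.8% had none, a share within the interval for Sox8 (0 to 25.9%).

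Sox5 and Sox6 are long genes, of 953.6 and 567.9 kb, and supplied most of the peaks: 132 of 211 in WT, 87 of 142 in het and 156 of 241 in mutant. Across the 9 loci 60.7% of WT peaks were intronic, against 38.9% of all WT peaks, and 13.7% were intergenic, against 40.7%. Loci were drawn around gene bodies, mostly those of Sox5 and Sox6, so more intronic and fewer intergenic peaks follow from that choice. Of 85 WT peaks of the Sox5 locus 78 were intronic.

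The strongest promoter peak of Sox5 lay at an internal start site, 572.3 kb into the gene, with 74 in WT and in mutant (−0.02, −0.50 to 0.47) and ranks of 97.8, 95.4 and 97.8 in WT, het and mutant. A second start site, 577.8 kb in, had 46 in WT and 52 in mutant, and the 5′-most start site had 30 and 36. An exonic region at 626.8 kb was as tall as the main promoter, with 71 in WT and 70 in mutant (−0.04, −0.54 to 0.46). Of the 20 WT peaks of all loci that ranked 90 or more 10 were in Sox5, and all 20 had a mutant and a het partner. In the whole WT list 15299 of 15301 such peaks had a mutant partner and 15269 a het one.

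Of 31 Sox5 pairs whose pileups averaged 20 or more, 19 were below the median of all pairs, and of 32 weaker ones 14 were, against 32376 of 62163 and 25640 of 53921 in the whole lists. The intronic region printed above at 335.8 kb had 62 in WT and 47 in mutant (−0.42, −0.996 to 0.15), that at 630.7 kb had 58 and 43 (−0.45, −1.05 to 0.14), and that at 438.4 kb had 47 and 36 (−0.40, −1.07 to 0.25). The lowest of the tall ones, at 329.6 kb, had 47 in WT and 26 in mutant (−0.87, −1.62 to −0.15), with ranks of 90.6 in WT, 70.8 in het and 70.8 in mutant. Next to it a region at 329.1 kb had 35 in WT and 29 in mutant. A weaker one, at 826.6 kb, had 17 in WT and 7 in mutant (−1.30, −2.81 to 0.05). The region at 329.6 kb was named as the lowest ratio of its locus, so its interval is a description. Its ranks come from lists of different length, and the het list was called with other settings. A lower het rank therefore need not mean a lower peak.

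Other Sox5 regions were higher in the mutant. That at 170.4 kb had 24 in WT and 41 in mutant (0.75, −0.01 to 1.55), with ranks of 73.8, 68.7 and 91.4 in WT, het and mutant. The region at 725.1 kb had 32 in WT and 48 in mutant (0.57, −0.11 to 1.26), and that at 228.3 kb had 11 and 24 (1.11, 0.02 to 2.28). The weak pair at 228.3 kb was chosen after its values were seen, so its interval is a description. The strongest mutant peak of any Sox locus without a WT partner was also in Sox5, at 90.4 kb, with a pileup of 25, a −log10 q of 14.8 and a rank of 74.6. It had no het peak either. Sox5 was 1 of the 203 names that the study lists as activated by Chd7 and Top2b and higher upon differentiation. Those names came from microarrays of cultured postmitotic granule neurons, not of the GNPs profiled here. None of the 9 was among the 151 names that the study lists as lower in mutant GNPs. Both lists were chosen on expression, not on these peaks.

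Sox6 had a main intronic region at 469.8 kb, with 64 in WT and 59 in mutant (−0.14, −0.67 to 0.40) and ranks of 97.2, 91.8 and 95.6 in WT, het and mutant. Its strongest promoter peak, at an internal start site 441.1 kb into the gene, had 19 in WT and 25 in mutant, and the tallest peak near its 5′ end, 54 in WT and 52 in mutant, lay at the start of the neighbouring gene 1110004F10Rik. Height differed in both directions. The region at 72.4 kb had 25 in WT and 41 in mutant (0.70, −0.06 to 1.47), with ranks of 75.7, 68.1 and 91.8 in WT, het and mutant, and that at 134.1 kb had 7 and 20 (1.496, 0.20 to 2.98). Conversely the region at 527.5 kb had 28 in WT and 17 in mutant (−0.74, −1.70 to 0.18). The weak pair at 134.1 kb was chosen after its values were seen, so its interval is a description.

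**Figure D3:**
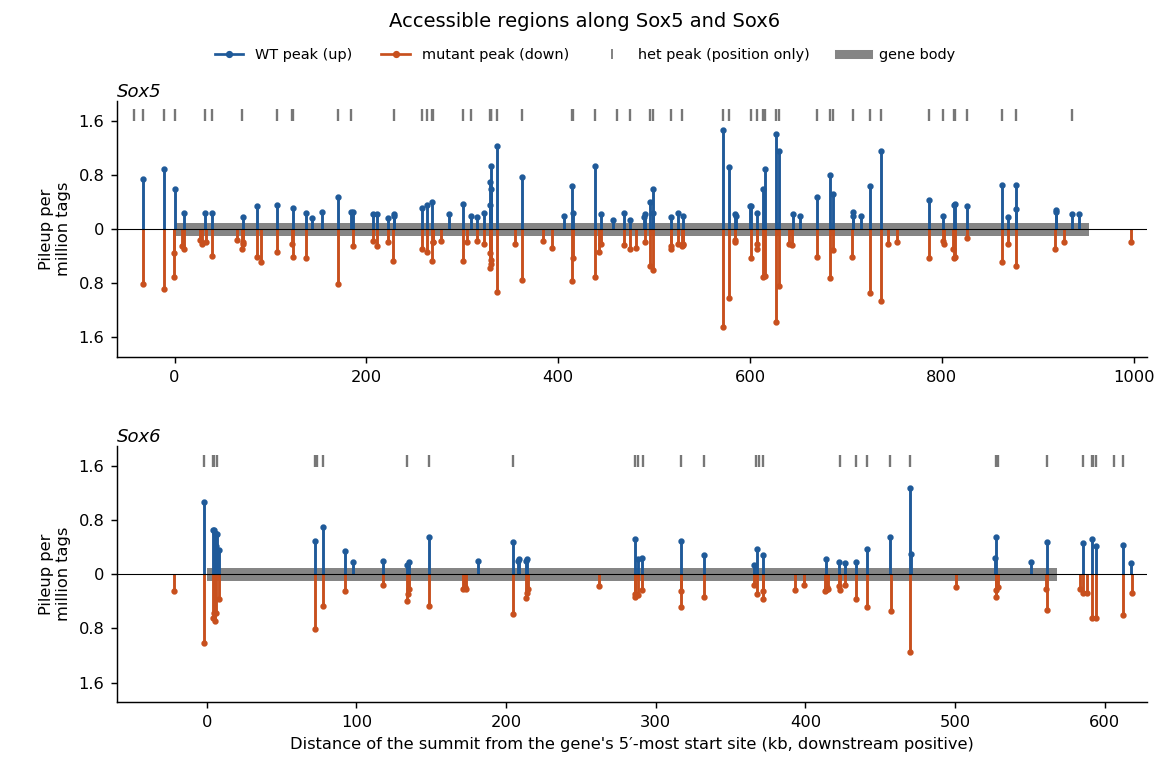
Peaks along Sox5 (top) and Sox6 (bottom), with the distance of the summit from the 5′-most start site on the x axis (kb) and height scaled to tag number on the y axis, WT upward and mutant downward, het as ticks. The tallest Sox5 peaks, at 572.3 and 626.8 kb, mirror each other in the 2 genotypes, and most other peaks are much shorter.

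Over all 9 loci the height of shared peaks was close to that in the whole lists. The 164 pairs, each made of peaks that were the tallest overlapping partner of each other, had a median log2 ratio of 0.07 (−0.02 to 0.12), and the 116084 pairs of the lists had 0.07. At least 1.5-fold lower in mutant were 8 pairs (4.88%), against 3.67% of all pairs, and at least 1.5-fold higher were 15 (9.15%), against 7.43%. Of these, 6 of the 8 and 14 of the 15 were in Sox5 and Sox6, which had 101 of the pairs. In the 7 short loci 2 of 63 pairs were lower and 1 was higher. Intervals that lay wholly below the median of all pairs were found for 3 of the 164 (0.803% of all pairs), in Sox9 and in Sox5 at 329.6 and 826.6 kb, and wholly above it for 1 (0.489% of all pairs), in Sox6 at 134.1 kb.

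In tall pairs of the Sox loci the median pair had equal pileups, which scaling turns into a log2 ratio of −0.02. Short pairs had a higher median. Where the pileups averaged 20 or more, the median log2 ratio was −0.02 over 87 pairs, against 0.05 over 62163 pairs of the lists, and 51 of the 87 were below the median of all pairs, against 32376 of the 62163. For lower pileups it was 0.20 over 77 pairs, against 0.09 over 53921. High calls were mostly weak peaks, 12 of 15, against 5538 of 8623 over the lists, and 5 of the 8 low calls were tall ones, against 1589 of 4261.

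**Figure D4:**
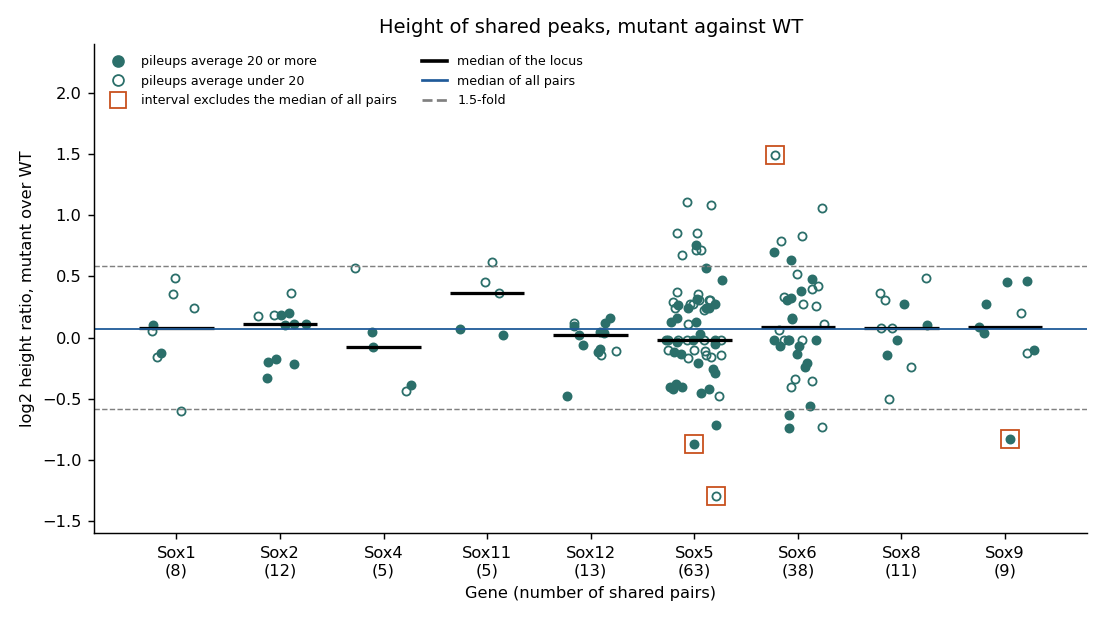
log2 ratio of height, mutant over WT (y axis), of each shared pair by gene (x axis, number of pairs in brackets), with filled points for pileups averaging 20 or more and open points for less. Black bars are medians of loci, the blue line the median of all pairs, dashed lines 1.5-fold, and squares mark the 4 pairs whose counting interval excludes the median of all pairs.

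Presence of peaks was compared in the same way. Of the 211 WT peaks 44 (20.9%, Wilson 95% interval 15.9 to 26.8%) had no overlapping mutant peak, against 22.8% of all WT peaks, and all WT peaks reweighted to the same −log10 q gave 25.1%. Mutant peaks without a WT peak were 66 of 241 (27.4%, 22.1 to 33.3%), against 30.7% of all mutant peaks and 31.7% at the same −log10 q. Each interval included the share in the whole list. In the 7 short loci, taken alone after the values were seen, 16 of 85 mutant peaks (18.8%, 11.9 to 28.4%) had no WT peak, an interval below the 30.7%, while all mutant peaks at their −log10 q gave 28.4%.

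Unshared peaks were weak. The 44 WT peaks had a median −log10 q of 3.72, and 42 of them ranked under 50, against 3.34 and 33223 of 34886 over all unshared WT peaks. Those with the highest −log10 q were an exonic peak in Sox9, 3.56 kb from its start (pileup 40, −log10 q 8.84, rank 59.5), and an intronic peak in Sox5 at 600.3 kb (17, 7.13, rank 52.0). The 66 mutant peaks had a median of 3.65, against 3.81 over all unshared mutant peaks. By gene the unshared part of the WT peaks went from 0 of 5 at Sox11 (upper bound 43.4%) and 0 of 11 at Sox8 (upper bound 25.9%) to 5 of 13 at Sox1 (38.5%, 17.7 to 64.5%). Sox1 thus had a larger share than 97.6% of the coding loci with at least 5 pairs. Its interval includes the 22.8% of the whole list, and all WT peaks at the −log10 q of the Sox1 peaks gave 31.0%. With peaks within 300 bp counted as shared, 23.1% of the Sox1 WT peaks were unshared.

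**Figure D5:**
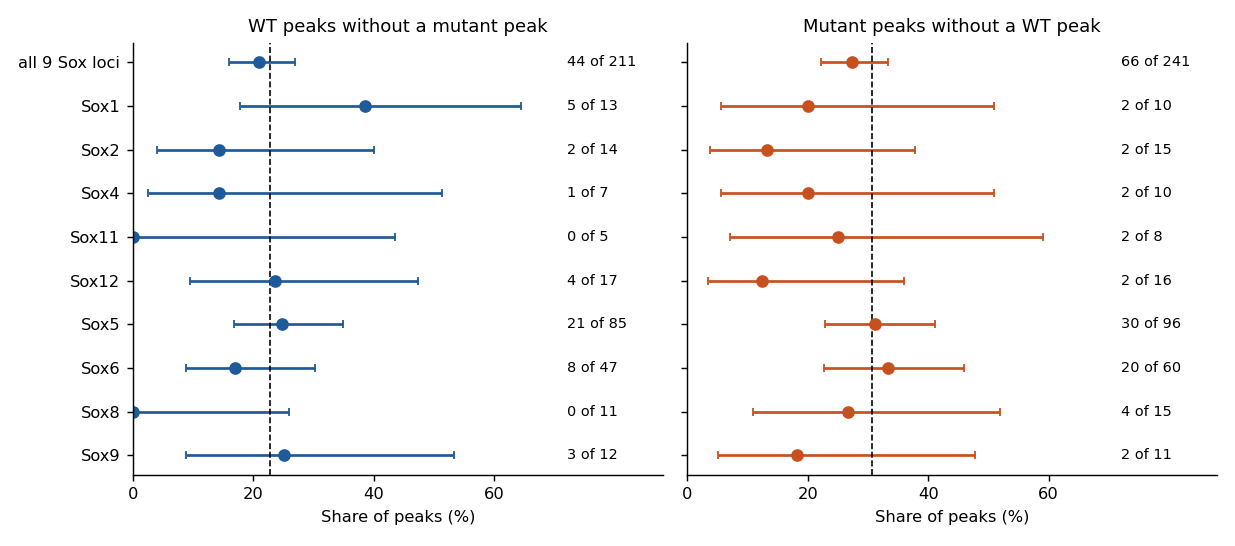
Percentage of WT peaks that lacked a mutant partner (left) and of mutant peaks that lacked a WT partner (right) for all 9 Sox loci and by gene, with Wilson 95% intervals as bars and counts at the right. The dashed lines, at 22.8% and 30.7%, are the shares over the whole lists, and every interval crosses its line.

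The het list held a partner for 131 of the 211 WT peaks (62.1%, 55.4 to 68.4%; 63.1% of all WT peaks) and for 145 of the 241 mutant peaks (60.2%, 53.9 to 66.1%; 58.7% of all mutant peaks). Peaks shared by WT and mutant were mostly in the het list as well, 126 of 167 (75.4%), against 77.9% over all such WT peaks. WT peaks that lacked a mutant partner had a het one in 5 of 44 cases (11.4%, 4.95 to 24.0%), against 13.2% over all such WT peaks. Mutant peaks that lacked a WT partner had a het one in 11 of 66 cases (16.7%, 9.57 to 27.4%), against 15.2%. Thus most unshared Sox peaks of either list were not called in het, which had fewer tags.

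For each of the 6 motifs the interval over all 211 WT windows included the share in the whole list. ACAATG was present in 19 of 211 windows of the Sox loci (9.0%, 5.84 to 13.6%), against 6.92% of all WT windows, and ACAAAG in 24 (11.4%), against 10.7%. CAGCTG was found in 42 (19.9%), against 20.1%, CAGATG in 46 (21.8%), against 24.5%, and TTGGCA in 34 (16.1%), against 18.4%. GGGCGG was found in 22 (10.4%), against 9.74%, and within 1 kb of a start site in 13 of 41 windows (31.7%, 19.6 to 47.0%), against 36.5%. ACAAAG was in 7 of those 41 (17.1%, 8.53 to 31.3%), against 7.57% of all WT windows near a start site, and it was the only 1 of the 6 motifs whose interval there left out the share in the list. Over 1 kb from a start site no interval of the 6 did, and ACAAAG was in 17 of 170, against 11.3% in the list. Median GC content was 53.6% against 52.3%. Of the sequences printed for a difference in height or presence, the 3 in Sox5 held CAGCTG and those in Sox9 and Sox6 did not. The strongest Sox5 peak called in WT only lacked it too. It was also in the printed Sox4 and Sox11 regions, which were tall in both genotypes. A match of letters does not show that a factor was bound.

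As a comparison, 10 other Sox genes (Sox3, Sox7, Sox10, Sox13, Sox14, Sox15, Sox17, Sox18, Sox21 and Sox30) had 105 WT, 79 het and 121 mutant peaks. Of their 105 WT peaks 19 had no mutant peak, against 22.8% of all WT peaks. Of their 83 pairs 3 were at least 1.5-fold lower in mutant, against 3.67% of all pairs, and 4 at least 1.5-fold higher, against 7.43%. The median log2 ratio of the 83 was 0.09. Promoters of these genes ranked lower in WT, with a median of 61.6 over the 8 that had a peak, and Sox10 and Sox14 had none.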

How the data were processed

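ATAC-seq libraries of P7 GNPs from 3 Chd7 genotypes were used as the authors' peak lists, 1 per genotype, called on 3 pooled WT, 3 pooled mutant and 2 pooled het libraries. Per the labels' processing notes, reads were trimmed with Trim Galore 0.4.1, aligned to mm10 with STAR 2.5.0b (WT, mutant) or Bowtie 1.0.0 (het), and handled with Picard 1.139. Peaks came from MACS2 2.1.0.20150731 without a control at a q of 0.05. Per the file headers, tags were 107 bp in WT and het and 76 bp in mutant, and het calls used a shift of −100 and an extension of 200 bp, which WT and mutant calls did not, so het heights were not compared. The study's methods give Bowtie and this shift for ATAC-seq in general, which differs from the WT and mutant headers, and the headers were followed. The deposited values were the pileup signal at the summit, its fold enrichment (a ratio to the local background) and the −log10 q (a −log10 p was not used). The authors gave no values per library, so no spread between replicates could be computed.

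Loci and start sites came from GENCODE M21, and bases from the RefSeq copy of GRCm38.p6. Peaks were shared at an overlap of 1 bp or more. Pairs were mutual tallest partners, and heights were scaled by the tags of each list (50394313 in WT, 51030229 in mutant). Shares have Wilson 95% intervals, height ratios exact (Clopper-Pearson) counting intervals in which the summit pileups were taken as counts, and medians order-statistic intervals. Shares over whole lists were also reweighted so that their peaks matched the deciles of −log10 q of the Sox peaks. Tags can share fragments, so summit pileups need not be independent counts. These intervals cover no error but that of counting, and can be too narrow even for that. Named for each gene were its strongest WT peak within 1 kb of its start sites, its strongest WT peak over 1 kb from any start site, its pairs of lowest and highest ratio with pileups averaging 20 or more, and its strongest unshared peaks; further peaks, such as those with the largest ratios among weak pairs and the neighbours of a named peak, were chosen after their values were seen. The members and lists were chosen with earlier results of these data known. The code was tested on simulated peak lists. Python 3.11.15, numpy 2.4.6, pandas 2.3.3, scipy 1.17.1 and pysam 0.24.0 were used.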

Additional observations from a re-analysis of the deposited data

How the results depend on the processing

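The median log2 ratio over the Sox loci stayed between −0.02 and 0.08 under all 7 alternatives, and the share at least 1.5-fold lower between 3.05 and 5.75%. The share at least 1.5-fold higher was highest for gene bodies alone, 11.54%, and changed to 3.45% for pairs whose pileups averaged 20 or more and to 1.59% without Sox5 and Sox6, an alternative chosen after seeing the data.

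Presence depended on thresholds. With a −log10 q of 5 or more the loci held 118 WT and 148 mutant peaks, of which 4.24% and 9.46% had no partner, and 88.98% and 82.4% had a het peak. This cut applied to the Sox peaks alone, and a partner could be any peak of the full other list. In lists cut to equal length weak WT and mutant partners were dropped too. Lists cut to equal length gave 133 WT and 146 mutant peaks, with a het peak for 81.2% and 83.6%. A reciprocal overlap of 50% left 35.5% of WT and 43.6% of mutant peaks unshared, with a het peak for 48.8% and 44.8%. Counting peaks within 300 bp as shared left 21.2% of mutant peaks unshared. For these settings of threshold, length and overlap no shares over the whole lists are given. Whether the shifts are particular to the Sox loci was therefore not tested. Gene bodies alone held 138 WT, 89 het and 159 mutant peaks. Without Sox5 and Sox6 there were 79, 55 and 85, with 18.8% of mutant peaks unshared (11.9 to 28.4%) and 69.4% with a het peak (59.0 to 78.2%), intervals that leave out the 30.7% and 58.7% of the whole list. At the same −log10 q the list gave 28.4% and 61.1%. The unshared Sox1 peaks were all under a −log10 q of 5. At Sox4, 1 of 7 WT peaks (14.3%, 2.57 to 51.3%) was unshared, but 60% in lists of equal length and 0% under the stricter q. These Sox4 shares rest on few peaks. The cause of these shifts was not tested. No paired analysis was possible because each genotype has 1 list on pooled libraries.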
